A study of Mus musculus with 69 samples.

Results

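The genes described are 9 members of MHC class I antigen presentation and antiviral sensing: B2m, H2-K1, H2-D1, Tap1, Tlr3, Ifih1, Irf1, Irf7 and Irf9. They are the rows of the deposited count table that carry these symbols, 9 of 55367, and all 9 were found. In fits of single time points 9 of them had enough counts to be tested, except at 0 and 48 h, when Ifih1 did not and 8 were tested. In the fit of all libraries, which was used for changes over time, all 9 were tested.

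Bulk RNA sequencing was done on mosaic gastruloids, aggregates of mouse embryonic stem (mES) cells that form gastrulating tissue, to follow cell competition between WT and p53-deficient cells. The parental line was E14Tg2A. The WT–mCherry clone carries an H2B–mCherry reporter driven by the EF1α promoter, the WT–emiRFP clone an H2B–emiRFP670 reporter driven by the CAG promoter, and the p53KO–emiRFP clone was derived from the WT–emiRFP clone by editing Trp53 and selecting with Nutlin-3a, so that p53KO cells differ from their own parent clone but stand for 1 clone only. The clones were sequenced as mES cells at 0 h. WT + WT gastruloids were seeded with 150 WT–mCherry and 150 WT–emiRFP cells, WT + p53KO gastruloids with 150 WT–mCherry and 25 p53KO–emiRFP cells, and both populations of each were sorted by fluorescence at 48, 72, 96, 120 and 144 h. The 23 conditions had 3 replicates each, 69 libraries in all, with total counts of 26722541 to 72981570 (median 53098728). The Wnt agonist CHIR99021 was given from 48 h to 72 h, so that the 48 h libraries stand at the start of that treatment and only the later ones come after it.

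MHC class I molecules present peptides of the cell's own proteins at its surface. H2-K1 and H2-D1 encode the classical heavy chains, B2m their shared light chain, and Tap1 one subunit of the transporter that carries peptides into the endoplasmic reticulum. Tlr3 and Ifih1 (MDA5) bind double-stranded RNA in endosomes and in the cytosol, respectively. Irf1, Irf7 and Irf9 are transcription factors of the interferon response; Irf9 acts downstream of the interferon receptors, Irf7 drives interferon genes, and Irf1 is known as an activator of MHC class I genes. Pluripotent stem cells are known for low MHC class I levels and a weak interferon response. TAP1, TLR3 and IRF9 have each been described as p53-responsive in human cells.

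On GRCm38, in the Gencode M21 annotation, H2-K1 (chr17:33996017-34000347, minus strand), Tap1 (chr17:34187553-34197225, plus strand) and H2-D1 (chr17:35262730-35267499, plus strand) lie in the MHC on chromosome 17. The others are B2m (chr2:122147686-122153083, plus), Ifih1 (chr2:62595798-62646255, minus), Irf7 (chr7:141262706-141266481, minus), Tlr3 (chr8:45395665-45411080, minus), Irf1 (chr11:53770014-53778374, plus) and Irf9 (chr14:55603571-55610030, plus). All 9 are protein-coding. H2-K1, H2-D1 and the other class I genes are closely related paralogues, so that counts of uniquely mapped reads may be split among them, and values of single class I genes are uncertain to that extent. Tap1 shares 212 exonic bases with Psmb9 on the opposite strand, Tlr3 shares 381 with Gm45542, Irf1 135 with Gm17334 and Irf7 45 with Phrf1. Irf9 shares 123 with Rnf31 on the same strand. The library preparation kept strand, but the strand setting of the counting is not given in the sources used here, and without it reads in such overlaps cannot be told apart.

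The RefSeq promoter windows of the class I genes and Tap1, which the results below turn on, are printed 5′ to 3′ on the gene's strand, from 250 bases before to 50 bases after the annotated start (GRCm38.p6). Capitals mark matches, on either strand, to the IRF core AANNGAAA, the interferon-stimulated response element (ISRE: GAAA, any 2 bases, GAAA, which contains the IRF core), the GAS element TTCNNNGAA, and the κB site.
H2-K1 (chr17:34000284-34000583): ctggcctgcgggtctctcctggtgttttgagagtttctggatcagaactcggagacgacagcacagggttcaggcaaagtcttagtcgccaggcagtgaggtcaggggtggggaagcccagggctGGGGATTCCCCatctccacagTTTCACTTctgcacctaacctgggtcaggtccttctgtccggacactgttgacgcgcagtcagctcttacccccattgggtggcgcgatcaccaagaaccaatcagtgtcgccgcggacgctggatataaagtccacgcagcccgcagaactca
H2-D1 (chr17:35262844-35263143): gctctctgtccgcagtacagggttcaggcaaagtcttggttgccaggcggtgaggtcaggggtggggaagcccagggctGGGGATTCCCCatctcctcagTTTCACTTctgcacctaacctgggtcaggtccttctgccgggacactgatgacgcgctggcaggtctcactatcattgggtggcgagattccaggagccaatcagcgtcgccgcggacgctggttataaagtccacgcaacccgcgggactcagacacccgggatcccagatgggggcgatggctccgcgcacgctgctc
B2m (chr2:122147437-122147736): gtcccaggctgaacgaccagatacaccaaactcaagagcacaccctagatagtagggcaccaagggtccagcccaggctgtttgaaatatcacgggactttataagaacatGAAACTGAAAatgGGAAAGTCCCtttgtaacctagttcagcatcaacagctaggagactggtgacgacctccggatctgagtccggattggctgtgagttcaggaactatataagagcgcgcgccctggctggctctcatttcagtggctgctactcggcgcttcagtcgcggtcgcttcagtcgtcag
Tap1 (chr17:34187306-34187605): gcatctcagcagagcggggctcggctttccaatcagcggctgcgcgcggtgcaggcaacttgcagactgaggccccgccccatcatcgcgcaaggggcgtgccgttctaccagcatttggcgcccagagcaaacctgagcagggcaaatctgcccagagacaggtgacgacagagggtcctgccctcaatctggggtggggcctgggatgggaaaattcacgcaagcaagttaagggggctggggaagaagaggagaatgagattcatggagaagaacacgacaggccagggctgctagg

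The H2-K1 and H2-D1 windows had the same base at 180 of 254 aligned positions (70.9%, aligned without gaps), and both held a κB site followed by an IRF core on the other strand. B2m held an ISRE and a κB site, and the Tap1 window held none of these motifs. Over the windows of all 9 genes, 5 held the IRF core (23.9% of 32851 RefSeq promoters do), 5 the κB site (4.51%), 2 the ISRE (3.44%) and 1 the GAS element (8.30%). The p53 half-site was in 0 of the 9, against 8.36% of all promoters. A match describes the letters of the window only.

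Trp53, the edited gene, had 1506 to 2589 normalized counts in the 18 p53KO–emiRFP libraries and 13902 to 27511 in the 51 WT libraries, with no overlap. Normalized counts are counts divided by a size factor that brings the 69 libraries to a common scale. Of 18 known p53 targets, 17 or 18 were below their WT–emiRFP level in the p53KO–emiRFP cells at every time point. The pluripotency genes Pou5f1, Sox2, Nanog, Klf4, Esrrb and Zfp42 summed to 176240 to 183870 in p53KO and 211920 to 214380 in WT–emiRFP mES cells, so that the stem cell label held. As leukocytes carry high MHC class I and sensor levels, 8 of their markers were examined. Adgre1 and Lyz2 had at most 3 counts in every library. The others were not all near 0, with 0 to 9.85 normalized counts of Ptprc, 0 to 24.6 of Csf1r, 3.31 to 28.7 of Cd14, 10.3 to 100.4 of Itgam, 0.970 to 104 of Spi1 and 179 to 1001 of Cd68 over the 69 libraries. Of 20 interferon ligand genes, 18, Ifnb1 and Ifng among them, had at most 3 counts in every library and none more than 5. In bulk samples, fewer expressing cells and less RNA per cell cannot be told apart.

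The members spanned a wide range of levels. They are given as CPM per kilobase of exon, with the exons of all annotated transcripts merged. For Irf7 the merged exons were 3776 bases, its whole gene, so that genes can be compared only roughly. The means of the 23 conditions were 8.89 to 32.6 for B2m, 6.25 to 27.7 for H2-K1, 5.89 to 13.4 for H2-D1, 3.71 to 10.3 for Irf1, 0.511 to 6.57 for Tap1 and 0.678 to 1.56 for Irf9. The RNA sensors and Irf7 were lowest, at 0.00735 to 0.624 for Ifih1, 0.0716 to 0.477 for Tlr3 and 0.0517 to 0.318 for Irf7. In single libraries Ifih1 had 2 to 335 raw counts, Irf7 8 to 89 and Tlr3 13 to 168, and their precision is limited by these counts. H2-K1 had 489 to 5064, Tap1 123 to 2089 and B2m 229 to 1647.

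Both RNA sensors and Irf7 had their highest level at 96 h in every population (plot of counts by time). Ifih1 rose from a few counts to 214 ± 60.5 normalized counts in WT–mCherry cells beside WT cells (SD, n = 3, as for all values given with ±), 198 ± 42.5 in WT–emiRFP, 234 ± 54.7 in WT–mCherry beside p53KO and 260.1 ± 34.6 in p53KO–emiRFP cells. At 48 h the 4 populations had means of only 3.43 to 7.82, and at 120 h they were back at 39.4 to 62.8. Tlr3 had 91.3 ± 14.5 in WT–mCherry beside WT cells and, among p53KO–emiRFP cells, 127 ± 11.9 at 96 h, but 33.6 ± 10.6 and 30.2 ± 7.50 at 72 h, and 34.2 ± 4.63 and 25.8 ± 8.07 at 120 h. Irf7 went through 18.2 ± 5.45, 33.5 ± 4.37 and 17.6 ± 6.25 in WT–mCherry beside WT cells at these times, and through 24.5 ± 1.31, 61.2 ± 19 and 25.1 ± 9.67 in p53KO–emiRFP cells.

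**Figure D1:**
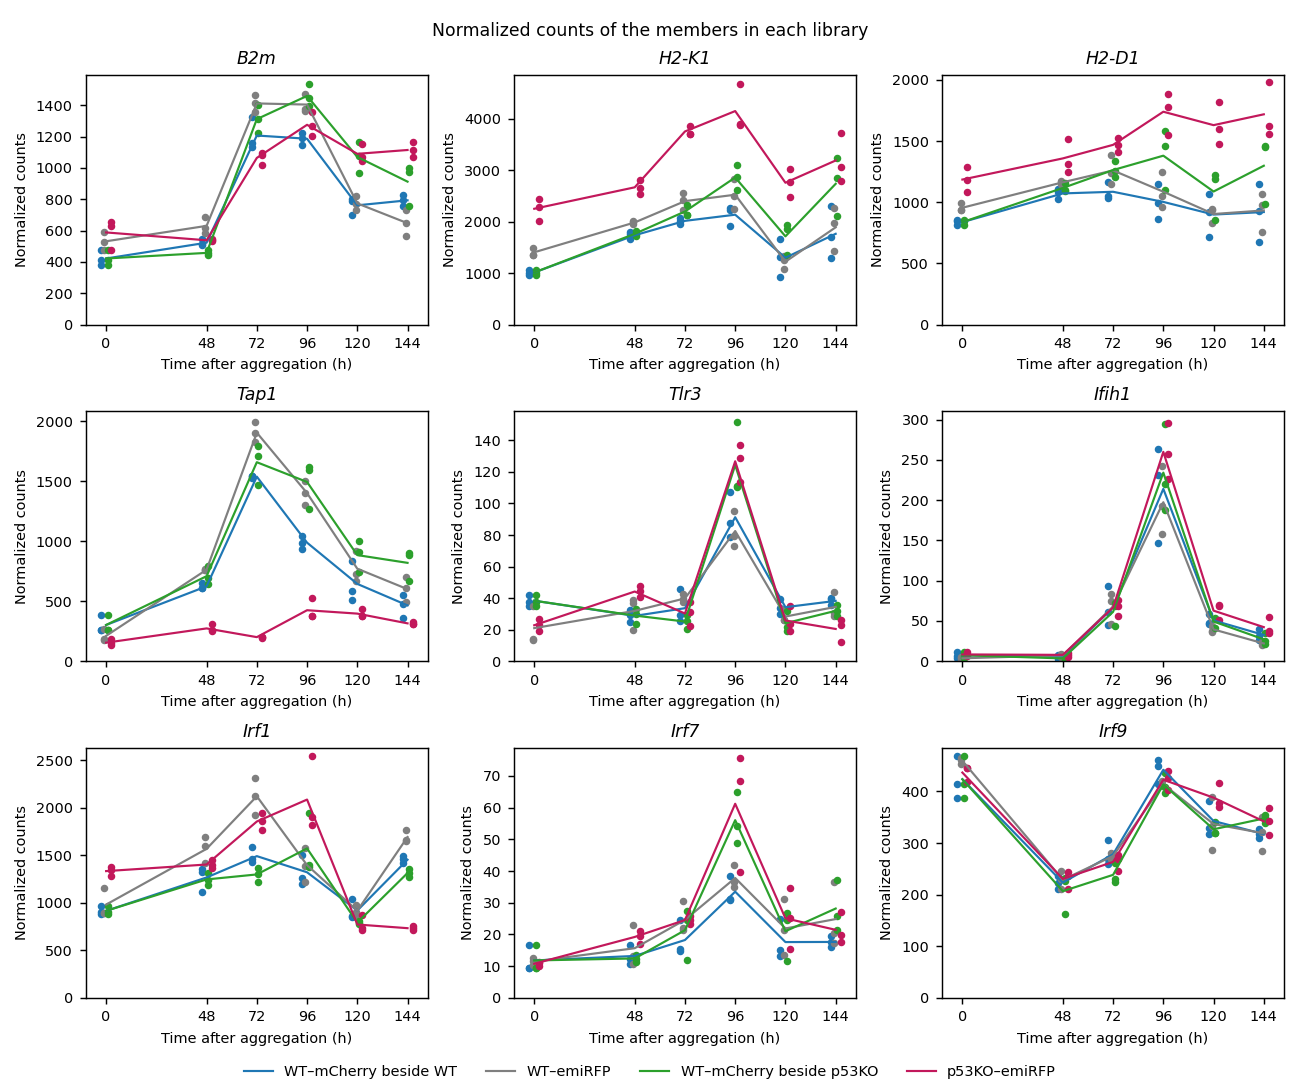
Normalized counts (linear axis from 0) of the 9 genes against time after aggregation in hours, with 1 point per library and lines through the means of 3 replicates. At 0 h the mES clones are shown, and the WT–mCherry clone stands for both WT–mCherry populations. Ifih1, Tlr3 and Irf7 peak at 96 h in all 4 populations, while the p53KO–emiRFP means lie lowest for Tap1 and highest for H2-K1 at every time in gastruloids.

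In WT cells, taken as the mean of the 3 sorted WT populations (both WT clones at 0 h), the steps between time points were tested in 1 fit of all libraries, with an adjusted p under 0.05 (edgeR's quasi-likelihood test, Benjamini-Hochberg adjustment over all genes) as the threshold for every call. Where a value of a member or listed gene is printed and the block changed its call, or leaving out 1 replicate ended it, that p is added: "if blocked" with the replicate number, which stands for 1 of 3 experiments, as a block, or without a named replicate. All 9 members fell from 96 to 120 h, against 28% of all tested genes that fell and 56.8% that changed in either direction. The sensors and Irf7 fell most. Ifih1 changed by a log2 fold change of −2.21 (s.e. 0.13, adjusted p = 1.9e-21), Tlr3 by −1.77 (s.e. 0.14, adjusted p = 4.0e-17) and Irf7 by −1.04 (s.e. 0.17, adjusted p = 4.7e-07). H2-K1 changed by −0.83 (s.e. 0.09, adjusted p = 2.6e-12), Tap1 by −0.75 (s.e. 0.09, adjusted p = 8.1e-11), Irf1 by −0.71 (s.e. 0.06, adjusted p = 8.0e-15) and B2m by −0.65 (s.e. 0.05, adjusted p = 5.8e-16). Irf9 with −0.34 (s.e. 0.06, adjusted p = 5.7e-07) and H2-D1 with −0.26 (s.e. 0.08, adjusted p = 0.0073, 0.051 to 0.063 without replicate 1 or 2) fell least. A list of 46 interferon-stimulated genes, the known downstream targets of these factors, went the same way: 37 of 44 tested fell and 3 rose, with a median log2 fold change of −1.11 against 0.00 over all genes.

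The members had risen at different times before. From 48 to 72 h, 7 of 9 rose and 0 fell (background 66.9% of genes changed), led by Ifih1 with 3.64 (s.e. 0.21, adjusted p = 3.9e-22), B2m with 1.30 (s.e. 0.06, adjusted p = 2.2e-28) and Tap1 with 1.28 (s.e. 0.09, adjusted p = 2.3e-19). From 72 to 96 h, 4 rose and 2 fell (background 58.6%). The 4 were the sensors Ifih1 with 1.72 (s.e. 0.13, adjusted p = 1.7e-17) and Tlr3 with 1.60 (s.e. 0.14, adjusted p = 1.8e-15), and Irf7 with 0.96 (s.e. 0.17, adjusted p = 2.9e-06) and Irf9 with 0.69 (s.e. 0.06, adjusted p = 5.6e-16), while Tap1 fell by 0.41 on the log2 scale (adjusted p = 3.4e-05). In this step 36 of the 44 interferon-stimulated genes rose and 4 fell (median 1.43, all genes 0.00). The class I members did not pass, with B2m at 0.04 (s.e. 0.05, adjusted p = 0.53), H2-K1 at 0.18 (s.e. 0.09, adjusted p = 0.069, 0.021 if blocked) and H2-D1 at −0.07 (s.e. 0.08, adjusted p = 0.51). From 0 to 48 h, 5 rose and 1, Irf9, fell (background 70.3%), with Tap1 at 1.45 (s.e. 0.11, adjusted p = 1.0e-17) and Irf9 at −1.0 (s.e. 0.06, adjusted p = 5.5e-21). From 120 to 144 h, 2 rose and 3 fell (background 55.4%), with Irf1 at 0.76 (s.e. 0.06, adjusted p = 1.2e-15) and H2-K1 at 0.58 (s.e. 0.09, adjusted p = 7.6e-08) among the rises and Ifih1 at −0.77 (s.e. 0.16, adjusted p = 3.4e-05) among the falls.

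p53KO–emiRFP cells also had a 96 h peak of the sensors. From 72 to 96 h, 6 of 9 rose and 0 fell (background 44.5%), among them Tlr3 with 2.05 (s.e. 0.23, adjusted p = 8.3e-11), Ifih1 with 1.95 (s.e. 0.22, adjusted p = 8.7e-11), Irf7 with 1.31 (s.e. 0.28, adjusted p = 8.9e-05) and Tap1 with 1.08 (s.e. 0.17, adjusted p = 4.0e-07). From 96 to 120 h, 6 fell and 0 rose (background 34.9%), with Tlr3 at −2.29 (s.e. 0.24, adjusted p = 7.2e-12) and Irf1 at −1.43 (s.e. 0.11, adjusted p = 2.2e-16). The interferon-stimulated genes followed in p53KO cells too, with 34 of 44 rising from 72 to 96 h and 29 of 44 falling from 96 to 120 h. From 48 to 72 h, 4 rose and 1, Tap1, fell (background 46.4%), with Tap1 at −0.44 (s.e. 0.18, adjusted p = 0.035, 0.065 to 0.14 without replicate 1, 2 or 3) where WT cells had risen. From 0 to 48 h, 2 rose and 1 fell (background 59.5%), and Irf7 was at 0.83 (s.e. 0.38, adjusted p = 0.054, 0.042 if blocked). From 120 to 144 h, 0 of 9 passed the edgeR threshold (background 22.7%), with 2 at an unadjusted p under 0.05 and 0 by DESeq2.

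To address how these genes differ without p53, p53KO–emiRFP cells were compared with WT–emiRFP cells, the parent clone, within each time point. At 0 h cultures of the single clones were compared. At 48 to 144 h the cells also came from different mosaics, WT + p53KO seeded with 25 p53KO–emiRFP cells and WT + WT seeded with 150 WT–emiRFP cells, so that genotype, neighbours and seeding number cannot be told apart there. Tap1, the peptide transporter subunit, was far lower in p53KO cells, while the heavy chains H2-K1 and H2-D1 were higher. Tap1 was lower at all 5 gastruloid times, H2-K1 was higher at all 6 times and H2-D1 at 5 of 6. Over all 9 members, 2 of 8 tested passed the threshold at 0 h (against 6.13% of all tested genes), 4 of 8 at 48 h (22%), 4 of 9 at 72 h (29.1%), 6 of 9 at 96 h (23.3%), 6 of 9 at 120 h (51.0%) and 7 of 9 at 144 h (65.3%). With the block the counts were 3, 5, 5, 8, 7 and 7, against 9.82%, 41.1%, 39%, 38.6%, 61.7% and 70.5% of all genes. At 120 and 144 h most of the tested genes differed, and the counts of members are to be read against that. The median log2 fold change over the members tested was 0.13, 0.12, −0.06, 0.58, 0.20 and 0.10 from 0 to 144 h, and over all tested genes it lay between −0.01 and 0.05. Of the 29 calls, 15 remained whichever replicate number was left out.

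Tap1 differed most at 72 h. The p53KO–emiRFP libraries then had 203, 201 and 197 normalized counts and the WT–emiRFP libraries 1991, 1823 and 1899 and did not overlap, with a log2 fold change of −3.25 (s.e. 0.08, adjusted p = 5.1e-13). At 48 h the values were 249, 306 and 264 against 759.7, 757 and 771, with −1.48 (s.e. 0.09, adjusted p = 5.6e-09). At 96 h they were 374, 523 and 377 against 1301, 1499.8 and 1401, with −1.73 (s.e. 0.12, adjusted p = 2.1e-07). From 96 h to 120 and 144 h the p53KO–emiRFP means went from 425 to 396 and 315, and the WT–emiRFP means from 1401 to 771 and 600. The difference was smaller at these later times. At 120 h it was −0.96 (s.e. 0.17, adjusted p = 3.7e-04) and at 144 h −0.93 (s.e. 0.17, adjusted p = 2.1e-04), with 309, 328 and 308 in p53KO–emiRFP and 610.1, 701 and 489 in WT–emiRFP libraries. In mES cells Tap1 was low in all clones, with 154 ± 26.3, 211 ± 51.2 and 302 ± 73.7 in p53KO–emiRFP, WT–emiRFP and WT–mCherry cells. There p53KO differed from WT–emiRFP cells by −0.46 (s.e. 0.21, adjusted p = 0.28, 0.038 if blocked). Over all gastruloid times, p53KO–emiRFP libraries had 197 to 523 normalized counts of Tap1, where the 45 WT libraries had 363 to 1991.

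H2-K1 was higher in p53KO–emiRFP cells already in mES cells, with 2016, 2293 and 2446 normalized counts against 1359.8, 1362 and 1494 in WT–emiRFP and 1055, 971 and 1011 in WT–mCherry cells. The log2 fold change against WT–emiRFP was 0.68 (s.e. 0.10, adjusted p = 8.4e-04, 0.10 without replicate 2). At 72 h it was 0.65 (s.e. 0.06, adjusted p = 1.1e-06), and at 120 h it was largest, 1.17 (s.e. 0.18, adjusted p = 8.2e-05), with 2776, 3024 and 2473 against 1264, 1326 and 1076. At 48, 96 and 144 h it was 0.43 (s.e. 0.05, adjusted p = 2.8e-05), 0.72 (s.e. 0.10, adjusted p = 9.8e-05) and 0.76 (s.e. 0.21, adjusted p = 0.0058, 0.055 without replicate 1). At all 6 times every p53KO–emiRFP library was above every WT–emiRFP library. H2-D1 was also higher in every p53KO–emiRFP library than in every WT–emiRFP library of its time. Its log2 fold changes were 0.31 (s.e. 0.10, adjusted p = 0.080) at 0 h, 0.22 (s.e. 0.07, adjusted p = 0.030, 0.062 to 0.20 without replicate 1, 2 or 3) at 48 h and 0.22 (s.e. 0.08, adjusted p = 0.039, 0.052 to 0.27 without replicate 1, 2 or 3) at 72 h. Later they were 0.68 (s.e. 0.14, adjusted p = 0.0021, 0.10 without replicate 1) at 96 h, 0.85 (s.e. 0.15, adjusted p = 2.7e-04) at 120 h and 0.88 (s.e. 0.19, adjusted p = 9.8e-04) at 144 h. At 144 h the H2-D1 libraries had 1622, 1979 and 1556 in p53KO–emiRFP and 976, 1064 and 759.9 in WT–emiRFP cells.

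B2m, the light chain, changed sides over time. It was lower in p53KO–emiRFP cells at 48 h, −0.23 (s.e. 0.07, adjusted p = 0.037, 0.051 to 0.30 without replicate 1, 2 or 3), and at 72 h, with 1096, 1079.6 and 1017 against 1412, 1357 and 1467 normalized counts and −0.41 (s.e. 0.07, adjusted p = 7.6e-04). At 96 h the difference was −0.14 (s.e. 0.06, adjusted p = 0.12, 0.014 if blocked). At 120 h B2m was higher in p53KO–emiRFP cells, 0.50 (s.e. 0.09, adjusted p = 2.4e-04), and at 144 h more so, with 1113, 1163 and 1068 against 647, 729.9 and 564 and 0.79 (s.e. 0.11, adjusted p = 2.5e-05). Between 96 and 144 h the mean of WT–emiRFP cells went from 1405 to 647, and that of p53KO–emiRFP cells from 1276 to 1115. In mES cells the difference was 0.14 (s.e. 0.14, adjusted p = 0.68).

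Among the transcription factors and sensors, directions differed by time. Irf1 was higher in p53KO–emiRFP cells at 0 h, 0.44 (s.e. 0.11, adjusted p = 0.033, 0.21 to 0.58 without replicate 2 or 3), and at 96 h, 0.58 (s.e. 0.15, adjusted p = 0.012, 0.12 without replicate 1). At 144 h it was lower, with 711, 736 and 751 against 1765, 1652 and 1661 normalized counts and a log2 fold change of −1.21 (s.e. 0.06, adjusted p = 1.1e-09). At 120 h the difference was −0.25 (s.e. 0.09, adjusted p = 0.041, 0.17 to 0.22 without replicate 1 or 3), at 48 h −0.16 (s.e. 0.08, adjusted p = 0.16, 0.017 if blocked) and at 72 h −0.19 (s.e. 0.07, adjusted p = 0.065, 0.035 if blocked). The sensor Ifih1 was higher at 120 h, 0.67 (s.e. 0.19, adjusted p = 0.0077, 0.054 to 0.074 without replicate 2 or 3), and 144 h, 0.93 (s.e. 0.26, adjusted p = 0.0055, 0.065 without replicate 3), with 42.3 ± 10.6 against 22 ± 1.48. At 96 h, its peak, the difference was 0.39 (s.e. 0.22, adjusted p = 0.22, 0.0022 if blocked). Tlr3, the endosomal sensor, was higher at 96 h, 0.61 (s.e. 0.17, adjusted p = 0.015, 0.055 to 0.17 without replicate 1 or 3), and lower at 144 h, −0.76 (s.e. 0.27, adjusted p = 0.026, 0.11 to 0.15 without replicate 1 or 2), where 12.1, 23 and 26.2 stood against 28.9, 43.9 and 30.4. Irf7 was higher at 96 h, 0.69 (s.e. 0.23, adjusted p = 0.042, 0.21 to 0.34 without replicate 1 or 2), with 68.4, 75.6 and 39.7 against 36.4, 42 and 35. Irf9 passed the threshold at 0 of 6 times by edgeR, with log2 fold changes of −0.07 to 0.20. Its largest difference was 0.20 (s.e. 0.12, adjusted p = 0.16, 0.037 if blocked) at 120 h. At none of the 6 times was its unadjusted p under 0.05, and DESeq2 called it at 0.

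**Figure D2:**
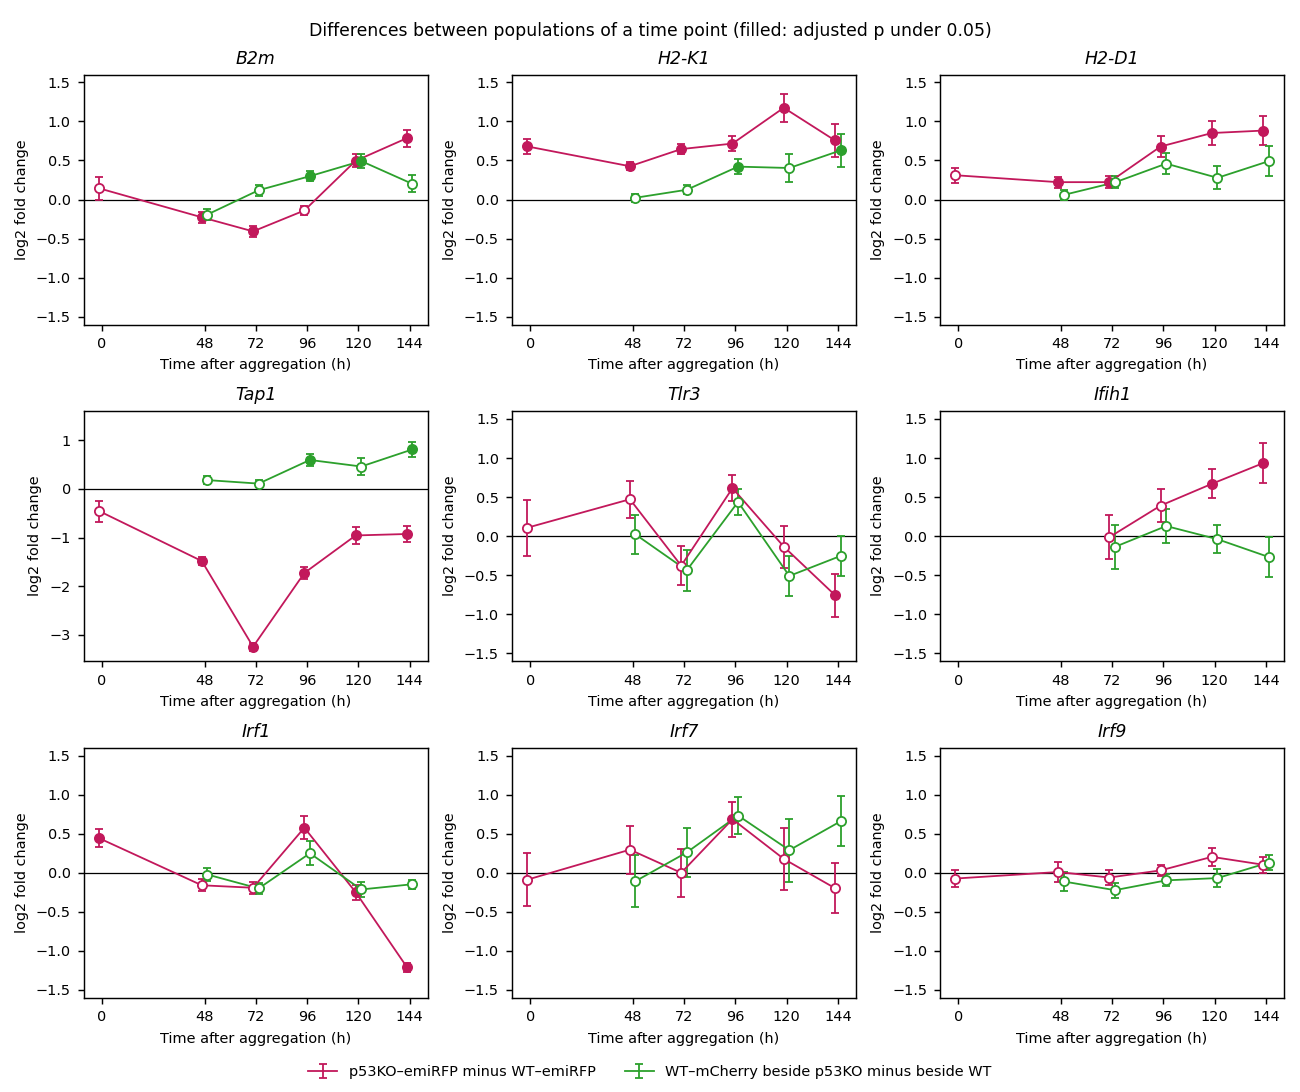
Log2 fold changes with standard errors against time after aggregation in hours for p53KO–emiRFP minus WT–emiRFP cells and for WT–mCherry cells beside p53KO minus beside WT cells, 3 replicates a group. Filled points passed an adjusted p of 0.05; Tap1 has its own axis range. Tap1 is lower in p53KO–emiRFP cells, most at 72 h, and higher in their WT–mCherry neighbours at 96 and 144 h.

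These differences went with other differences between the populations. The 6 pluripotency markers summed to 44377 to 49056 against 44974 to 47918 at 48 h, 48988 to 52748 against 49004 to 57410 at 72 h, 24598 to 26919 against 34367 to 38879 at 96 h, 15004 to 15939 against 63972 to 71513 at 120 h and 18324 to 24203 against 87798 to 98033 at 144 h (normalized counts in p53KO–emiRFP against WT–emiRFP cells). These sums overlapped at 48 and 72 h and were lower in every p53KO–emiRFP library from 96 h on. Sox2, which the paper also names for spinal cord and brain trajectories, is part of them, so that at later times they need not stand for pluripotency. Values of their single genes are not given here. The presomitic and paraxial mesoderm markers T, Tbx6, Msgn1, Meox1 and Tcf15 summed to 1144 to 1439.6 against 847 to 961 at 48 h, 41209 to 45581 against 45855 to 58854 at 72 h, 48575 to 56781 against 39359 to 46360 at 96 h, 27987 to 32956 against 10908 to 14560 at 120 h and 18605 to 24791 against 3069.9 to 4158 at 144 h. The mesoderm sums were lower in every p53KO–emiRFP library at 72 h, where Tap1 differed most, and higher at the other times. Single mesoderm genes are not given here and need not all follow the sum. The endoderm markers summed to 14282 to 15298 against 13604 to 14191 at 48 h, 16892 to 17919 against 13815 to 15661 at 72 h, 27246 to 28349 against 16622 to 19848 at 96 h, 16612 to 18759 against 10331 to 10794 at 120 h and 8975 to 10801 against 9133 to 10028 at 144 h. These sums were higher in p53KO–emiRFP cells without overlap from 48 to 120 h and overlapped at 144 h. The listed genes were Sox17, Foxa2, Cdx2 and Epcam. They were also counted in mES cells, as given below, so that the sum does not measure endoderm alone. Its single genes were not examined. By the paper's own analysis, endodermal development was somewhat impaired in p53KO cells at 120 h. The 9 haematoendothelial markers summed to 2523 to 2629 against 2671 to 2813 at 48 h, 1809.7 to 1862 against 2248 to 2256 at 72 h, 2523 to 3114 against 5063 to 5946 at 96 h, 3337 to 3618 against 6413 to 6613 at 120 h and 2440 to 2942 against 7873 to 7955 at 144 h. They were lower in every p53KO–emiRFP library at all 5 times. At 120 h Pecam1, also expressed in pluripotent cells, made up 526 to 669 and 3459.9 to 3979 of this sum and Kdr 131 to 230.1 and 1104 to 1460.5. Single markers did not all follow the sum: Kdr was higher in p53KO–emiRFP cells at 48 h, 14.7 to 26.9 against 3.46 to 6.63, and overlapped at 72 h, 46.3 to 59.6 against 44.6 to 52.4, and at 144 h, 494 to 662 against 637 to 713, and Cdh5 was higher at 96 h, 47.7 to 56.9 against 20.6 to 40.0. The 8 leukocyte markers summed to 340.3 to 401 against 414 to 479 at 48 h, 271 to 471 against 568 to 713 at 72 h, 297 to 393 against 579 to 628 at 96 h, 199 to 350.5 against 484 to 631 at 120 h and 297 to 375 against 556 to 847 at 144 h. They too were lower in every p53KO–emiRFP library at all 5 times, and most of the sum was Cd68. In mES cells at 0 h, where H2-K1 and Irf1 passed, the pluripotency sums were lower in p53KO–emiRFP cells, as given above, the endoderm sums were 8087 to 8379 against 6762 to 8083 and the leukocyte sums 439.8 to 475 against 478 to 667, none of them overlapping. The mesoderm sums, 1343 to 1866 against 1459 to 1829, and haematoendothelial sums, 4601 to 6166 against 5299 to 6118, overlapped. The part of these cell states in the differences was not tested.

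Whether the 2 populations moved differently between time points was tested as the difference of their steps. Of 9 members, 2 passed at 0 to 48 h (background 5.98%), 1 at 48 to 72 h (1.76%), 3 at 72 to 96 h (11%), 3 at 96 to 120 h (30.8%) and 1 at 120 to 144 h (16.9%). Tap1 rose less in p53KO than in WT–emiRFP cells from 0 to 48 h and fell where they rose from 48 to 72 h, and it moved upward relative to them in both following steps. Irf1 moved upward relative to WT–emiRFP cells from 72 to 96 h, and downward from 0 to 48 h, 96 to 120 h and 120 to 144 h. B2m fell less in p53KO cells from 96 to 120 h, and Tlr3 rose more from 72 to 96 h. Ifih1, Irf7, Irf9, H2-K1 and H2-D1 passed at none of the 5 steps by edgeR without the block, while H2-D1 from 72 to 96 h, at 0.46 (s.e. 0.20, adjusted p = 0.15, 0.034 if blocked), and H2-K1 from 96 to 120 h, at 0.46 (s.e. 0.21, adjusted p = 0.093, 0.023 if blocked), did with it; unadjusted, 2 of their 25 values had a p under 0.05, and DESeq2 called 0 of them.

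The question of how WT cells respond to p53KO neighbours was addressed by comparing WT–mCherry cells of WT + p53KO with those of WT + WT gastruloids. Class I genes and Tap1 were the members that passed, all of them higher beside p53KO cells, from 96 h on. Of the members tested, 0 of 8 passed at 48 h (background 0.0735% of genes) and 0 of 9 at 72 h (0.559%) by edgeR, with 2 and 3 at an unadjusted p under 0.05 and 0 by DESeq2. At 96 h, 3 of 9 passed (3.93%, of which 2.87% higher), at 120 h 1 of 9 (5.95% and 3.43%) and at 144 h 2 of 9 (25.5% and 10.1%), the last not far from the background. With the replicate number as a block these counts were 7, 5 and 6 of 9, against 20.9%, 20.3% and 37.2% of all genes, and they were 0 at 48 and 72 h (against 4.91% and 2.27%). Without replicate 1, 0 members passed at any time, and without replicate 2 or 3 there were 4 and 7 calls over all times.

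Tap1, low in p53KO cells themselves, was higher in the WT–mCherry cells beside them. At 96 h the libraries had 1592, 1622 and 1266 normalized counts beside p53KO and 985, 1046 and 932 beside WT cells, with no overlap and a log2 fold change of 0.60 (s.e. 0.12, adjusted p = 0.017, 0.072 to 0.37 without replicate 1 or 2). At 120 h it was 0.46 (s.e. 0.17, adjusted p = 0.13, 4.6e-04 if blocked). At 144 h the libraries had 898, 889 and 672 against 477, 554 and 363, and the log2 fold change was 0.81 (s.e. 0.16, adjusted p = 0.0029, 0.067 without replicate 1). B2m was higher at 96 h, 0.30 (s.e. 0.06, adjusted p = 0.020, 0.069 to 0.36 without replicate 1, 2 or 3), and 120 h, with 1166, 1078 and 967 against 786, 801 and 697 and 0.49 (s.e. 0.08, adjusted p = 0.0042, 0.13 without replicate 1). At 144 h it stood at 0.20 (s.e. 0.11, adjusted p = 0.20, 0.047 if blocked). H2-K1 was higher at 96 h, 0.42 (s.e. 0.10, adjusted p = 0.033, 0.10 to 0.39 without replicate 1 or 2), and at 144 h, where the libraries had 2848, 3242 and 2120 against 1699.8, 2304 and 1290 and overlapped, with 0.63 (s.e. 0.21, adjusted p = 0.042, 0.26 without replicate 1). At 120 h its log2 fold change was 0.40 (s.e. 0.18, adjusted p = 0.22, 0.0019 if blocked). H2-D1 was at 0.46 (s.e. 0.14, adjusted p = 0.078, 3.5e-06 if blocked), 0.28 (s.e. 0.15, adjusted p = 0.32, 0.023 if blocked) and 0.49 (s.e. 0.19, adjusted p = 0.074, 3.5e-04 if blocked) at 96, 120 and 144 h. For all 4 genes at 96, 120 and 144 h, each of the 3 libraries beside p53KO cells was above the library beside WT cells with the same replicate number. This also held for B2m, H2-K1 and H2-D1 at 72 h and for H2-D1 and Tap1 at 48 h, where no member passed. The share of all genes with this pattern was not counted.

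Among the sensors and IRFs no member passed the edgeR threshold at any time without the block, while with it Irf7, Tlr3 and Irf1 did at some times. Irf7 was at 0.73 (s.e. 0.24, adjusted p = 0.099, 0.013 if blocked) at 96 h, with 64.9, 54.4 and 48.9 against 30.9, 38.5 and 31 normalized counts, and at 0.66 (s.e. 0.32, adjusted p = 0.15, 0.042 if blocked) at 144 h. Tlr3 was at 0.44 (s.e. 0.17, adjusted p = 0.16, 0.015 if blocked) at 96 h. Irf1 was at 0.25 (s.e. 0.15, adjusted p = 0.39, 0.0016 if blocked) at 96 h, −0.21 (s.e. 0.09, adjusted p = 0.22, 0.023 if blocked) at 120 h and −0.15 (s.e. 0.06, adjusted p = 0.076, 0.042 if blocked) at 144 h. Ifih1 lay between −0.27 and 0.13 and Irf9 between −0.22 and 0.13 over the times tested.

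RNA of emiRFP cells in the sorted WT–mCherry libraries was estimated from H2bc14, which is high in both emiRFP clones and near 0 in WT–mCherry mES cells. Its share was 2.24% ± 1.11, 5.60% ± 2.37 and 9.37% ± 7.26 beside p53KO cells at 96, 120 and 144 h, and 0.736% ± 0.410, 1.53% ± 0.467 and 1.23% ± 1.01 beside WT cells (SD, n = 3 each). At 144 h it was 16.8% in replicate 1. After subtraction of this RNA, an alternative chosen after seeing the data, the 6 calls remained. Tap1 was then at 0.62 (s.e. 0.12, adjusted p = 0.014) and 0.91 (s.e. 0.17, adjusted p = 0.0010) at 96 and 144 h, and H2-K1 at 0.41 (s.e. 0.10, adjusted p = 0.034) and 0.61 (s.e. 0.21, adjusted p = 0.040). Of the 18 known p53 targets, 6, 6 and 9 (12, 13 and 10 with the block) were higher beside p53KO cells at 96, 120 and 144 h and none lower. Of all genes, 2.87%, 3.43% and 10.1% were higher, and 20.9%, 20.3% and 37.2% were called in either direction with the block. The median log2 fold change over the list was 0.23, 0.23 and 0.33 (all genes 0.00, −0.01 and −0.03).

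Cell state markers also differed between the 2 groups of WT–mCherry cells at the times with member calls. The leukocyte markers summed to 583 to 925 against 477 to 489 at 96 h, 572 to 865 against 395 to 537 at 120 h and 899 to 1152 against 369 to 578 at 144 h (normalized counts beside p53KO against beside WT cells). Every library beside p53KO cells was above every library beside WT cells at all 3 times. At 144 h Cd68, also a general lysosomal protein, made up 773 to 1001 and 268 to 446 of this sum, and the difference of the sum was mostly in it. Csf1r at 3.17 to 9.57 against 0.885 to 2.06 and Itgam at 75.5 to 80.4 against 57.7 to 70.7 were also higher beside p53KO cells without overlap, Cd14 at 7.65 to 14.3 against 14.4 to 20.2 was lower without overlap, and Spi1 at 31.3 to 48.8 against 18.6 to 35.7 and Ptprc at 0 to 1.91 against 0 to 2.33 overlapped. At 96 and 120 h Cd68 was higher without overlap, at 543 to 864 against 415 to 434 and 503 to 789 against 329 to 452. The mesoderm markers summed to 46478 to 49860 against 40189 to 44926 at 96 h, 17946 to 21215 against 12320 to 16507 at 120 h and 3927 to 7820.3 against 5385 to 7467 at 144 h, and the pluripotency markers to 37308 to 41794 against 37109 to 47574 at 96 h, 46087 to 47153 against 52038 to 65206 at 120 h and 66501 to 74152 against 65574 to 71205 at 144 h. The mesoderm sum was higher beside p53KO cells without overlap at 96 and 120 h and the pluripotency sum lower at 120 h. These sums overlapped otherwise, and their single genes, which are not given here, need not follow them. The endoderm markers summed to 20431 to 21969 against 19556 to 21337 at 96 h, 12581 to 15077 against 10166 to 12067 at 120 h and 8753 to 11028 against 6514 to 8571 at 144 h, and the haematoendothelial markers to 4025 to 4789.7 against 4374 to 4803 at 96 h, 4259 to 4743 against 4682 to 5241 at 120 h and 6061 to 6579.5 against 5972 to 6454 at 144 h. The endoderm sum was higher beside p53KO cells without overlap at 120 and 144 h, and haematoendothelial sums overlapped at all 3 times. Single haematoendothelial markers did not all overlap. Kdr was lower beside p53KO cells at 48.9 to 52.3 against 56.6 to 68.8 at 96 h, 186 to 286 against 651 to 798 at 120 h and 345 to 394 against 763 to 1118 at 144 h, while Pecam1 was lower at 120 h, 2287 to 2543 against 2596 to 3425, and higher at 144 h, 4769.7 to 5043 against 3928 to 4367. The part of these markers and of the p53 targets in the members' differences was not tested.

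The clones themselves were compared as WT–emiRFP against WT–mCherry cells of WT + WT gastruloids, and as mES cells at 0 h. This comparison shares its libraries with both others. Of the members tested, 1 of 8 passed at 0 h (background 11.1%), 4 of 8 at 48 h (8.89%), 3 of 9 at 72 h (7.64%), 1 of 9 at 96 h (2.15%), 0 of 9 at 120 h (1.24%) and 1 of 9 at 144 h (23.8%), all higher in WT–emiRFP cells. Of all genes, 6.57%, 4.18%, 4.35%, 1.26%, 0.716% and 10.8% were higher at these times. At 120 h no member had an unadjusted p under 0.05 and DESeq2 called 0. With the replicate number as a block the counts were 2, 4, 4, 3, 1 and 3, where 17.3%, 28.8%, 16.2%, 16%, 10.8% and 33.9% of all genes were called. The calls gained were Tap1 at 0 h, −0.52 (s.e. 0.21, adjusted p = 0.13, 0.011 if blocked), B2m at 72 h, 0.23 (s.e. 0.07, adjusted p = 0.076, 0.018 if blocked), 96 h, 0.24 (s.e. 0.06, adjusted p = 0.058, 6.2e-04 if blocked), and 144 h, −0.30 (s.e. 0.11, adjusted p = 0.070, 0.0060 if blocked), H2-K1 at 96 h, 0.24 (s.e. 0.10, adjusted p = 0.23, 5.3e-04 if blocked), and Tap1 at 120 h, 0.26 (s.e. 0.17, adjusted p = 0.54, 0.035 if blocked), and 144 h, 0.36 (s.e. 0.16, adjusted p = 0.12, 0.0063 if blocked). Tap1 at 0 h and B2m at 144 h were lower in WT–emiRFP cells. Among the members called without the block Irf1 had the largest difference, with 0.51 (s.e. 0.07, adjusted p = 8.2e-04, 0.087 without replicate 1) at 72 h, then 0.31 (s.e. 0.08, adjusted p = 0.022, 0.14 to 0.21 without replicate 1 or 2) at 48 h and 0.22 (s.e. 0.06, adjusted p = 0.013, 0.089 to 0.097 without replicate 1, 2 or 3) at 144 h. Tap1 was at 0.29 (s.e. 0.08, adjusted p = 0.042, 0.078 to 0.23 without replicate 1, 2 or 3), 0.31 (s.e. 0.07, adjusted p = 0.015, 0.10 to 0.27 without replicate 1 or 2) and 0.50 (s.e. 0.12, adjusted p = 0.041, 0.088 to 0.36 without replicate 1, 2 or 3) at 48, 72 and 96 h. H2-K1 was at 0.47 (s.e. 0.10, adjusted p = 0.0092, 0.073 to 0.23 without replicate 2 or 3), 0.19 (s.e. 0.05, adjusted p = 0.034, 0.11 to 0.23 without replicate 1, 2 or 3) and 0.25 (s.e. 0.06, adjusted p = 0.019, 0.18 to 0.33 without replicate 1 or 2) at 0, 48 and 72 h, and B2m at 0.27 (s.e. 0.07, adjusted p = 0.030, 0.074 to 0.23 without replicate 1, 2 or 3) at 48 h. None of the 10 calls remained whichever replicate was left out.

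Other genes of the presentation pathway were taken from a list of 24, which includes further class I genes, Tap2, Tapbp, immunoproteasome subunits, Erap1 and Nlrc5 (map of presentation genes). In p53KO–emiRFP against WT–emiRFP cells, 7 of 22 were higher and 0 lower at 0 h (median log2 fold change 0.43). The counts were 1 higher and 5 lower of 21 at 48 h (median −0.01), 4 higher and 5 lower of 22 at 72 h (median −0.12), 12 higher and 1 lower of 23 at 96 h (median 0.47), 9 higher and 2 lower of 22 at 120 h (median 0.40) and 8 higher and 5 lower of 23 at 144 h (median −0.06). Over all tested genes the medians lay within 0.05 of 0, and the shares called in either direction were 6.13%, 22%, 29.1%, 23.3%, 51.0% and 65.3% from 0 to 144 h, against which these counts and those of the lists below are to be read. With the block the presentation genes were 8 and 0, 3 and 7, 5 and 7, 16 and 3, 13 and 3 and 8 and 8 higher and lower from 0 to 144 h. These and the blocked counts of the lists below are to be read against the blocked shares, 9.82%, 41.1%, 39%, 38.6%, 61.7% and 70.5% of all genes. Of all listed genes called, the p53 targets included, 18 of 36, 30 of 47, 38 of 56, 26 of 48, 66 of 78 and 73 of 89 passed whichever replicate was left out. Other class I genes were among those higher in p53KO–emiRFP cells. Genes were named by their fold change at a mean of at least 50 normalized counts, and some are also given at times that this rule did not pick. H2-Q6 was at 1.11 (s.e. 0.15, adjusted p = 6.8e-04) at 0 h, where its p without single replicates is not given. H2-Q4 was at 0.88 (s.e. 0.11, adjusted p = 4.3e-04, 0.051 without replicate 2) at 0 h and 1.49 (s.e. 0.11, adjusted p = 5.7e-08) at 144 h, where it had 1675 ± 76.3 against 597 ± 35.5 normalized counts. H2-Q7 was at 0.97 (s.e. 0.17, adjusted p = 0.0040, 0.13 without replicate 2) at 0 h and 0.97 (s.e. 0.14, adjusted p = 3.9e-05) at 120 h, H2-Q10 at 1.13 (s.e. 0.17, adjusted p = 7.0e-05) at 120 h, and H2-M3 at 1.01 (s.e. 0.25, adjusted p = 0.0081, 0.13 without replicate 1) at 96 h. Erap1, which trims peptides in the endoplasmic reticulum, was at 1.21 (s.e. 0.10, adjusted p = 2.5e-07) at 120 h.

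A few presentation genes were lower in p53KO–emiRFP cells at the times when Tap1 was. Nlrc5, a transactivator of class I genes, was lower in p53KO–emiRFP cells at 48 h, −1.41 (s.e. 0.26, adjusted p = 0.0011), 72 h, −1.59 (s.e. 0.18, adjusted p = 9.5e-06) with 39.8 ± 3.37 against 119.7 ± 9.05 normalized counts, 96 h, −0.89 (s.e. 0.22, adjusted p = 0.0089, 0.073 to 0.17 without replicate 1 or 2), and 120 h, −1.49 (s.e. 0.38, adjusted p = 0.0043) with only 16.1 ± 4.43 against 45.7 ± 2.06. At 144 h it was at −0.61 (s.e. 0.30, adjusted p = 0.094). Psmb9, the immunoproteasome subunit whose gene lies next to Tap1 on the opposite strand, was lower at 48 h, −0.46 (s.e. 0.16, adjusted p = 0.047, 0.27 to 0.28 without replicate 1 or 3), and 72 h, −1.0 (s.e. 0.15, adjusted p = 1.7e-04), with 92.1 ± 13.6 against 185 ± 14.3. At 96, 120 and 144 h, where Tap1 was still lower, Psmb9 was at 0.02 (s.e. 0.21, adjusted p = 0.96), 0.22 (s.e. 0.20, adjusted p = 0.39) and −0.52 (s.e. 0.26, adjusted p = 0.092, 0.0049 if blocked). Tap2, the partner subunit, was at −0.35 (s.e. 0.16, adjusted p = 0.14) at 48 h, −0.78 (s.e. 0.22, adjusted p = 0.014, 0.078 without replicate 3) at 72 h and 0.50 (s.e. 0.27, adjusted p = 0.22, 1.5e-04 if blocked) at 96 h; it was named for its role after its values were seen. In WT–mCherry cells beside p53KO cells, 3 higher and 0 lower of 23 at 96 h (median 0.36) and 1 higher and 0 lower of 22 at 120 h (median 0.09) passed. At 144 h, 6 higher and 3 lower of 23 did (median 0.12). Of all genes, 3.93%, 5.95% and 25.5% passed at these times. With the block the counts were 15 higher and 0 lower, 5 higher and 3 lower and 6 higher and 3 lower. The blocked shares of all genes were 20.9%, 20.3% and 37.2%. At 48 and 72 h 0 passed by edgeR, with 2 and 6 at an unadjusted p under 0.05 and 0 and 1 by DESeq2. Nlrc5 was higher beside p53KO cells, 0.86 (s.e. 0.21, adjusted p = 0.038, 0.14 to 0.45 without replicate 1 or 2) at 96 h and 1.08 (s.e. 0.27, adjusted p = 0.011, 0.084 to 0.089 without replicate 1 or 3) at 144 h, with only 42.3 ± 9.32 against 19.8 ± 4.23 normalized counts at 144 h. So were H2-Q4 with 0.44 (s.e. 0.10, adjusted p = 0.023, 0.095 to 0.27 without replicate 1 or 2) at 120 h, and H2-Q6 with 0.97 (s.e. 0.13, adjusted p = 2.2e-04) and H2-Q2 with 0.90 (s.e. 0.19, adjusted p = 0.0038, 0.055 without replicate 1) at 144 h.

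**Figure D3:**
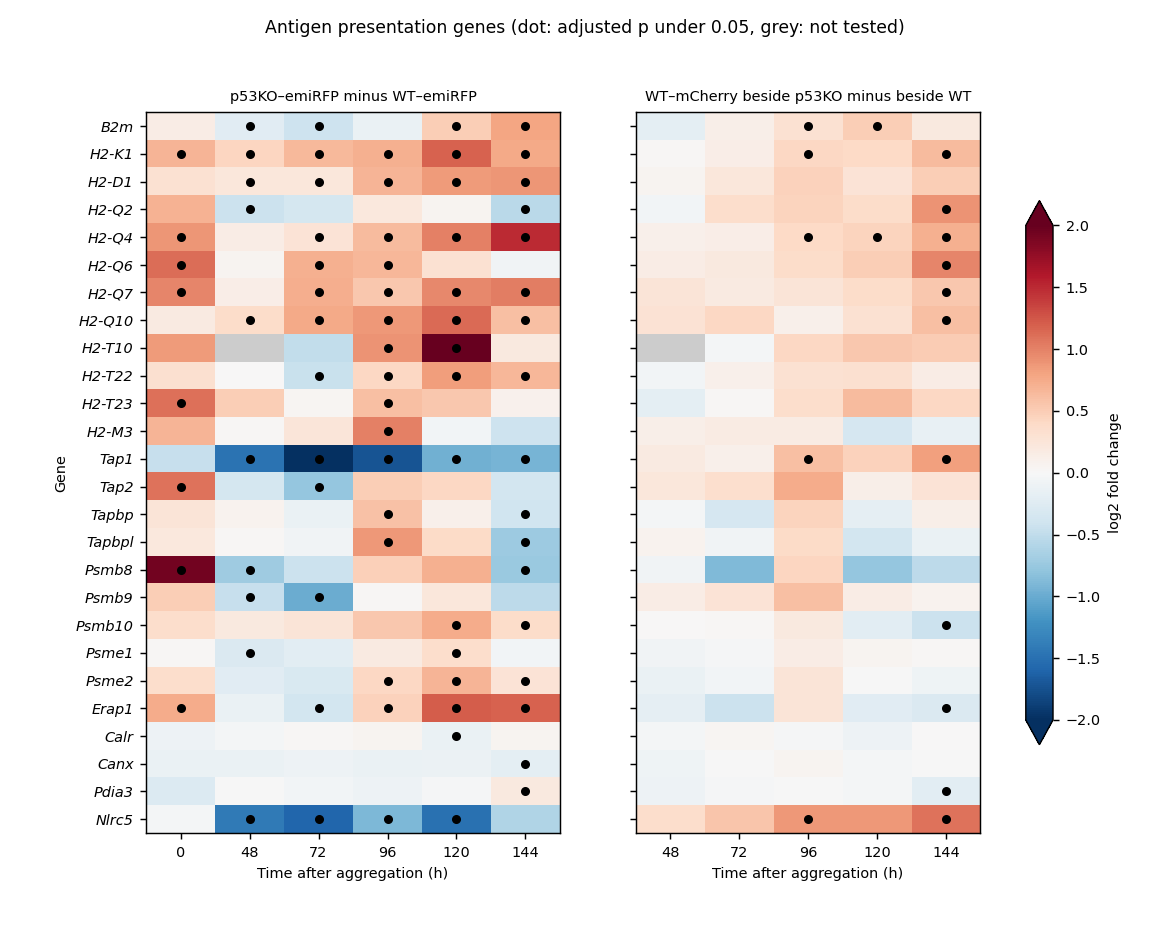
Log2 fold changes (colour, scale cut at −2 and 2) of the 4 presentation members and the listed presentation genes, except H2-Q1 and H2-T24, which were tested at 1 time point each, by time after aggregation in hours. The left panel shows p53KO–emiRFP minus WT–emiRFP cells and the right panel WT–mCherry cells beside p53KO minus beside WT cells, with dots at an adjusted p under 0.05 and grey where a gene was not tested. Tap1 (48 to 144 h) and Nlrc5 (48 to 120 h) are lower in p53KO–emiRFP cells, and both are higher in their WT–mCherry neighbours at 96 and 144 h.

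Of 24 other genes of RNA and DNA sensing, 0 of 18 passed at 0 h by edgeR (3 at an unadjusted p under 0.05, 0 by DESeq2), and 5 higher and 0 lower of 18 at 48 h (median 0.08), 5 higher and 3 lower of 17 at 72 h (median 0.07), 1 higher and 2 lower of 18 at 96 h (median 0.01), 6 higher and 3 lower of 17 at 120 h (median 0.27) and 7 higher and 7 lower of 18 at 144 h (median 0.16) passed in p53KO–emiRFP against WT–emiRFP cells. With the block they were 0 and 0, 6 and 1, 5 and 4, 3 and 3, 7 and 4 and 7 and 7 higher and lower from 0 to 144 h. Ddx58 (RIG-I), the other cytosolic RNA sensor, was at 0.71 (s.e. 0.07, adjusted p = 1.0e-06) at 48 h and −0.79 (s.e. 0.10, adjusted p = 1.0e-05) at 144 h, Sting1, the adaptor of DNA sensing, at 1.43 (s.e. 0.18, adjusted p = 1.8e-05) at 120 h, and Tlr2, a receptor of bacterial lipoproteins, at −1.16 (s.e. 0.09, adjusted p = 7.5e-08) at 144 h. Of 21 interferon receptors, JAKs, STATs and IRFs other than the members, 0 higher and 1 lower of 19 at 0 h (median −0.10), 2 higher and 3 lower of 18 at 48 h (median −0.07), 1 higher and 8 lower of 20 at 72 h (median −0.14), 2 higher and 2 lower of 20 at 96 h (median −0.06), 7 higher and 6 lower of 20 at 120 h (median 0.09) and 9 higher and 4 lower of 21 at 144 h (median 0.10) passed, with Irf2 at 2.04 (s.e. 0.18, adjusted p = 3.0e-07) at 144 h. With the block they were 0 and 3, 3 and 4, 3 and 12, 4 and 3, 9 and 7 and 9 and 4. Of 46 interferon-stimulated genes, 7 higher and 3 lower of 35 at 0 h (median 0.18), 5 higher and 8 lower of 33 at 48 h (median 0.04), 1 higher and 11 lower of 30 at 72 h (median −0.33), 3 higher and 7 lower of 42 at 96 h (median −0.15), 16 higher and 12 lower of 40 at 120 h (median 0.26) and 7 higher and 25 lower of 37 at 144 h (median −1.11) passed. With the block they were 11 and 4, 7 and 9, 2 and 13, 12 and 10, 18 and 14 and 8 and 26 higher and lower, so that at 96 h more were lower without the block and more higher with it. Ifitm3, a membrane protein that restricts virus entry, was at −1.36 (s.e. 0.09, adjusted p = 1.6e-08) at 72 h, Rnf213 at 2.00 (s.e. 0.14, adjusted p = 5.7e-08) at 120 h, and Oasl1 at −2.58 (s.e. 0.28, adjusted p = 2.0e-06) at 144 h. In WT–mCherry cells beside p53KO cells, 3.93%, 5.95% and 25.5% of all genes passed at 96, 120 and 144 h. With the block 20.9%, 20.3% and 37.2% did, and the counts that follow are to be read against these shares. There 0 of 42 interferon-stimulated genes passed at 96 h by edgeR (7 at an unadjusted p under 0.05, 1 by DESeq2), while 19 higher and 1 lower did with the block. At 120 and 144 h, 1 higher and 6 lower of 40 at 120 h (median −0.17) and 4 higher and 9 lower of 37 at 144 h (median −0.03) passed, and 4 higher and 13 lower and 7 higher and 9 lower with the block. Of the sensing genes, 0 passed at 96 h by edgeR (4 at an unadjusted p under 0.05, 0 by DESeq2) and 1 higher and 0 lower of 17 at 120 h (median −0.01) and 3 higher and 0 lower of 18 at 144 h (median −0.07) did, which with the block became 3 higher and 1 lower, 1 higher and 1 lower and 3 higher and 1 lower. Of the receptors, JAKs, STATs and IRFs, 1 higher and 0 lower of 20 at 96 h (median 0.05), 2 higher and 0 lower of 20 at 120 h (median 0.08) and 4 higher and 2 lower of 21 at 144 h (median 0.11) passed, and 4 higher and 0 lower, 3 higher and 0 lower and 4 higher and 4 lower with the block. Of all listed genes called beside p53KO cells, the p53 targets included, 0 of 10, 1 of 17 and 15 of 40 at 96, 120 and 144 h passed whichever replicate was left out, and without replicate 1 0, 1 and 18 did.

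Across the 23 condition means of log2 normalized counts, H2-K1 and H2-D1 were each other's closest gene in the genome (Pearson r = 0.90), among genes with a mean of at least 50 normalized counts. H2-K1 and Tap1 had r = −0.03, and B2m and Ifih1 r = 0.92. The 3 closest genes, with r, were Sytl1 (0.95), Rxylt1 (0.94), Plcd4 (0.94) for Tap1, Aldh5a1 (0.95), Slc35c1 (0.95), Dscam (0.95) for B2m, Myh11 (0.95), Crybg1 (0.91), Gbp4 (0.90) for Tlr3 and Kcnc1 (0.97), Pwwp3b (0.97), 4930556M19Rik (0.97) for Ifih1. They were Gas2l1 (0.84), Gmfg (0.82), Alox12e (0.80) for Irf1, Aqp11 (0.93), Dnah11 (0.90), Olfm1 (0.90) for Irf7 and Gm37607 (0.95), Notch4 (0.95), Id1 (0.95) for Irf9. The conditions share their time course and experiments, so that these values are descriptions. In the order of the 23 condition means, Tap1 ran from 154 in p53KO–emiRFP mES cells to 1904 in WT–emiRFP cells at 72 h, and H2-K1 from 1012 (WT–mCherry mES cells) to 4152 (p53KO–emiRFP, 96 h). Of the 22 pairs of neighbours in that order, the libraries did not overlap in 4 for Tap1, 3 for Irf1, 2 each for B2m, H2-K1, Tlr3, Ifih1 and Irf9, 1 for Irf7 and 0 for H2-D1.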

How the data were processed

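The authors deposited 1 table of raw counts per gene symbol for 69 bulk RNA-seq libraries. They trimmed reads with Trim Galore 0.6.7, aligned them with STAR 2.7.11b to GRCm38.p6 and counted genes of Gencode v25. Library preparation was poly(A)-selected. Library totals were 26722541 to 72981570 counts. Symbols were located in Gencode M21, where 96.25% of them were found.

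Groups were taken from the sample titles and the table's column names, and no column outside the 69 samples was used. Counts were normalized by median-ratio size factors over the 69 libraries, filtered by group with filterByExpr, and tested with the quasi-likelihood test of edgeR 4.0.16 in R 4.3.3 (two-sided, Benjamini-Hochberg adjustment over all tested genes, threshold 0.05). Comparisons within a time point used its 12 libraries (9 at 0 h; residual degrees of freedom 8 with 12), and time steps used 1 fit of all 69. Alternatives were TMM normalization, no filter, DESeq2 1.42.0, the replicate number as a block, each replicate left out, the compared groups only, 1 fit of all groups, and subtraction of emiRFP RNA estimated from H2bc14. The procedure was tested on simulated data.

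By the study's methods the replicates came from separate experiments, and library names carry the same digit within a number, so the number was taken to pair libraries. The deviations that same-numbered libraries showed from the means of their groups correlated with a mean of 3 between 0.149 and 0.573 over 33 group pairs. Of these pairs, 6 had a single value under 0.1 (lowest 0.0377). The mean for libraries with other numbers was at most −0.0751. Deviations cancel out within a group, so that this mean is bound to be negative where the other is positive. It is no evidence of its own. P-values measure the spread between these experiments with 1 clone each.

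The members, gene lists and tests were chosen with earlier results of these data known. Named were all members, Trp53, up to 2 called genes per list, comparison and time point with the largest log2 fold change at a mean of at least 50 normalized counts, and the 3 genes most like each member. Some listed genes are also given at times that this rule did not pick. Marker lists were those of pluripotent cells, presomitic and paraxial mesoderm, endoderm, haematoendothelial cells and leukocytes.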

Additional observations from a re-analysis of the deposited data

Results flagged for a closer look

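For 4 members the step between neighbouring time points differed between p53KO–emiRFP and WT–emiRFP cells by edgeR's test of the interaction; values are log2 differences of the steps, p53KO minus WT, with 3 libraries in each group. For Tap1 they were −1.02 (adjusted p = 0.0060, 0.057 to 0.098 without replicate 1 or 3) from 0 to 48 h, −1.76 (adjusted p = 1.6e-06) from 48 to 72 h, 1.52 (adjusted p = 2.4e-06) from 72 to 96 h and 0.77 (adjusted p = 0.0047, 0.051 to 0.072 without replicate 1 or 3) from 96 to 120 h. For Irf1 they were −0.60 (adjusted p = 0.0090, 0.076 to 0.080 without replicate 1 or 2) from 0 to 48 h, 0.77 (adjusted p = 2.2e-04) from 72 to 96 h, −0.83 (adjusted p = 1.8e-05) from 96 to 120 h and −0.96 (adjusted p = 3.8e-06) from 120 to 144 h. B2m differed by 0.64 (adjusted p = 9.4e-05) from 96 to 120 h and Tlr3 by 0.99 (adjusted p = 0.041, 0.068 to 0.24 without replicate 1, 2 or 3) from 72 to 96 h. All 10 also passed with the replicate number as a block, and 6 of the 10 passed whichever replicate was left out. Neighbouring steps share a time point, so that the values of 1 gene are not independent of each other.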

How the results depend on the processing

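Counts of member calls over all time points were 29 for p53KO–emiRFP against WT–emiRFP cells, 6 for WT–mCherry cells with p53KO rather than WT neighbours, 10 for WT–emiRFP against WT–mCherry cells, 33 for steps of WT cells, 20 for steps of p53KO cells and 10 for the differences of steps. With the replicate number as a block the second was 18 and the third 17. Of 283 single results the block added 29 calls and removed 0, and it changed no other call. Without a low-count filter the second count was 13. The third count was 6 in a fit of the compared groups and 6 in 1 fit of all 23 groups. When replicates were left out in turn, the counts were 20 to 22, 0 to 7, 1 to 6, 28 to 32, 17 to 21 and 6 to 9 in the order above, and the second was 0 without replicate 1. Leaving out a library lowers the number of samples. Of the 29, 6, 10, 33, 20 and 10 calls, 15, 0, 0, 26, 16 and 6 passed whichever replicate was left out. No result changed its direction while called. Of the 283 single results, 278 kept their side of the threshold with TMM, 275 with DESeq2, 257 without the filter, and 244, 253 and 248 without replicates 1, 2 and 3. Of 148, 138 did with the compared groups only and 127 in the fit of all groups. After subtraction of emiRFP RNA, chosen after seeing the data, 44 of 44 did.

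The number of all genes called, on which the background shares rest, moved by over 1.5 times in these cases. With its range over the alternatives in parentheses it was, for p53KO–emiRFP against WT–emiRFP cells, 1123 (248 to 2909) at 0 h, 3899 (1769 to 7262) at 48 h, 5147 (2637 to 6900) at 72 h and 4267 (1848 to 7078) at 96 h. For WT–mCherry cells with p53KO rather than WT neighbours it was 13 (0 to 869) at 48 h, 99 (0 to 402) at 72 h, 720 (0 to 3830) at 96 h, 1123 (140 to 3826) at 120 h and 4954 (2312 to 7221) at 144 h. For WT–emiRFP against WT–mCherry cells it was 2028 (118 to 5072) at 0 h, 1573 (337 to 5102) at 48 h, 1354 (167 to 2865) at 72 h, 395 (30 to 2929) at 96 h, 233 (18 to 2040) at 120 h and 4620 (2176 to 6578) at 144 h. For the steps of p53KO cells it was 4787, 2827 at the least, from 120 to 144 h. For the differences of steps it was 1264 (324 to 2052) at 0 to 48 h, 372 (103 to 588) at 48 to 72 h, 2333 (924 to 3372) at 72 to 96 h, 6501 (4188 to 7485) at 96 to 120 h and 3575 (1762 to 4647) at 120 to 144 h. Ifih1, with as few as 2 counts in single libraries, was too low to be tested at 0 and 48 h, and counts of Irf7 and Tlr3 were low throughout.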
